A study of Danio rerio with 2 samples.

Results

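The cadherins and protocadherins of the zebrafish trunk olig2 lineage are described here through every gene identifier whose symbol begins with cdh or pcdh followed by a digit. There were 82 such identifiers, carrying 77 symbols, among the 27771 in the gene lists. A member was described with values at a stage when it had at least 50 transcript molecules, counted by unique molecular identifiers (UMIs), over the cells that could be placed in a group. At 60 hpf (hours post fertilization) 61 of 82 identifiers passed and at 28 hpf 61 passed, with 55 passing at both stages and 67 at either. Just inside this limit at 60 hpf stood cdh23 (ENSDARG00000007561) with 51 UMIs and pcdh1g3 with 52, and just outside cdh24a with 48 and pcdh20 (ENSDARG00000101910) with 39. At 28 hpf pcdh1a6 and cdh13 had 50 UMIs each, while cdh5 had 48 and pcdh2ab5 46. Cdh24a at 60 hpf and cdh15 are given some values below although they were under the limit. The 15 identifiers that passed at neither stage were cdh15, cdh16, cdh26.1, cdh28, cdh29, cdh30, pcdh12, pcdh1a3, 1 of the 2 pcdh20 identifiers, pcdh2aa1, pcdh2ab1, both pcdh2ab2 identifiers, pcdh2ab11 and pcdh2ac. Of these, cdh28, pcdh2ab11 and 1 pcdh2ab2 identifier had 0 UMIs in both libraries.

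Cadherins are calcium-dependent adhesion proteins of the cell surface. Type I classical cadherins, such as N-cadherin (cdh2) and E-cadherin (cdh1), hold like cells together and bind the actin cytoskeleton through catenins, and type II classical cadherins are used in combinations that differ between groups of neurons, including motor pools in chick and mouse. The delta protocadherins are single-gene relatives with conserved cytoplasmic motifs and act in cell sorting and axon growth, whereas the clustered protocadherins are read from arrays of variable first exons joined to shared constant exons and are known in the mouse for giving single neurons different surface identities.

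The cells came from Tg(olig2:dsRed) embryos, a line whose dsRed reporter is under olig2 control, so that sorted red cells can include descendants in which olig2 itself is off. Trunks of many embryos were pooled at 60 hpf and at 28 hpf, red cells were sorted, and 1 droplet-based 3′ library was sequenced per stage, all on the same transgenic background with no treatment. The 42 hpf stage was not analysed here. Because the animals were pooled into 1 library per stage, no difference below has a replicate check or a test, and stage and library cannot be told apart. After keeping cells with at least 1000 detected genes, the 60 hpf library held 5517 cells (63277958 UMIs, median 6809 per cell) and the 28 hpf library 8390 cells (92676735 UMIs, median 7375.5). The libraries shared 16 cell barcodes among the kept cells.

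Cells were clustered without the cadherin and protocadherin genes and each cluster was named from fixed marker lists, so that each name below stands for cells like that type. The classes included 2663 motor neurons at 60 hpf and 558 at 28 hpf, 341 and 1556 GABAergic interneurons, 261 and 125 V3 interneurons, 122 and 554 radial glia, and 763 and 1505 progenitors. Oligodendrocyte precursors and oligodendrocytes (OPC/OL, 359 cells) were found at 60 hpf, and precursors (1535 cells, marked by insm1b, neurod4 and delta genes) and most cycling progenitors (1244 cells) at 28 hpf. The reporter's own gene, olig2, had 46.96 UMIs per 10000 in OPC/OL and 27.91 in progenitors at 60 hpf, and 38.78 in progenitors at 28 hpf, but 0.1866 and 0.4433 in the erythroid cells that were also sorted. Clusters 2, 7 and 15 carried a leading gene of another class and none of their own markers among their 10 leading genes: cluster 2 (progenitors, 28 hpf) had dld, cluster 7 (progenitors, 60 hpf) had gfap and cluster 15 (motor neurons, 60 hpf) had calca. Cluster 5, with 757 of the GABAergic interneurons at 28 hpf, held 27.9% predicted doublets and a median of 13077 UMIs, and an unnamed cluster of 428 cells (cluster 12, 50.8% predicted doublets) entered no group. Radial glia were mostly cluster 23 at 60 hpf and cluster 11 at 28 hpf, so the class is not the same cells at both stages. The name of cluster 11 is less certain, with a median log2 ratio of 1.4972 for radial glia markers and 1.0092 for floor plate markers.

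Levels are UMIs of a gene summed over a class per 10000 UMIs of that class, with exact Poisson 95% intervals, and they are compared within a gene and not between genes. In such sums, fewer cells with the transcript and less transcript per cell cannot be told apart. A member was taken as changed, or as higher or lower, when its level differed by at least 2-fold with at least 50 UMIs over the 2 classes and a pseudocount of 1 UMI, a rule of size and not a test. All intervals cover counting error only. Unless said otherwise, a progenitor level is that of the non-cycling class. Ratios of other classes over progenitors take in cycling ones. So do the progenitor levels beside ratios for precursors, OPC/OL, radial glia, stages, catenins and wider cadherins.

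Members took 145546 UMIs at 60 hpf and 134959 at 28 hpf. The 14 delta protocadherin identifiers held the largest share, 61.4% of member UMIs at 60 hpf and 48.6% at 28 hpf, followed by the 4 type I cadherins (14.4% and 25.7%), the 36 clustered protocadherins (12.4% and 13.3%) and the 11 type II cadherins (10.1% and 11.2%). Summed over all pcdh identifiers, protocadherins stood at 30.36 UMIs per 10000 in motor neurons at 60 hpf (95% interval 30.15 to 30.57), at 22.37 in V3 interneurons, 20.74 in GABAergic interneurons and 16.59 in OPC/OL, against 12.02 in progenitors (11.73 to 12.32). At 28 hpf they stood at 18.76 in V3 interneurons, 17.05 in motor neurons, 15.76 in GABAergic interneurons and 13.22 in precursors, against 10.01 in progenitors. Every neuronal class was above the progenitors of its own stage. The summed cdh identifiers ran differently: among progenitors, radial glia, OPC/OL, precursors and the neuronal classes, radial glia stood highest at both stages (13.8 at 60 hpf and 9.26 at 28 hpf), with 7.71 in motor neurons against 11.25 in progenitors at 60 hpf, and 4.55 in motor neurons against 7.77 in progenitors at 28 hpf. This order rested in part on cdh2. Without cdh2, at 60 hpf the summed cadherins were at 4.5 in motor neurons (4.42 to 4.58) and 4.62 in V3 interneurons, overlapping 4.59 in progenitors (4.41 to 4.77), with 5.91 in radial glia (5.44 to 6.41). At 28 hpf, again without cdh2, they were at 1.27 in motor neurons, 3.15 in GABAergic interneurons (3.07 to 3.24) and 2.64 in V3 interneurons, against 2.41 in progenitors (2.31 to 2.5), and radial glia at 2.49 were no longer highest.

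**Figure D1:**
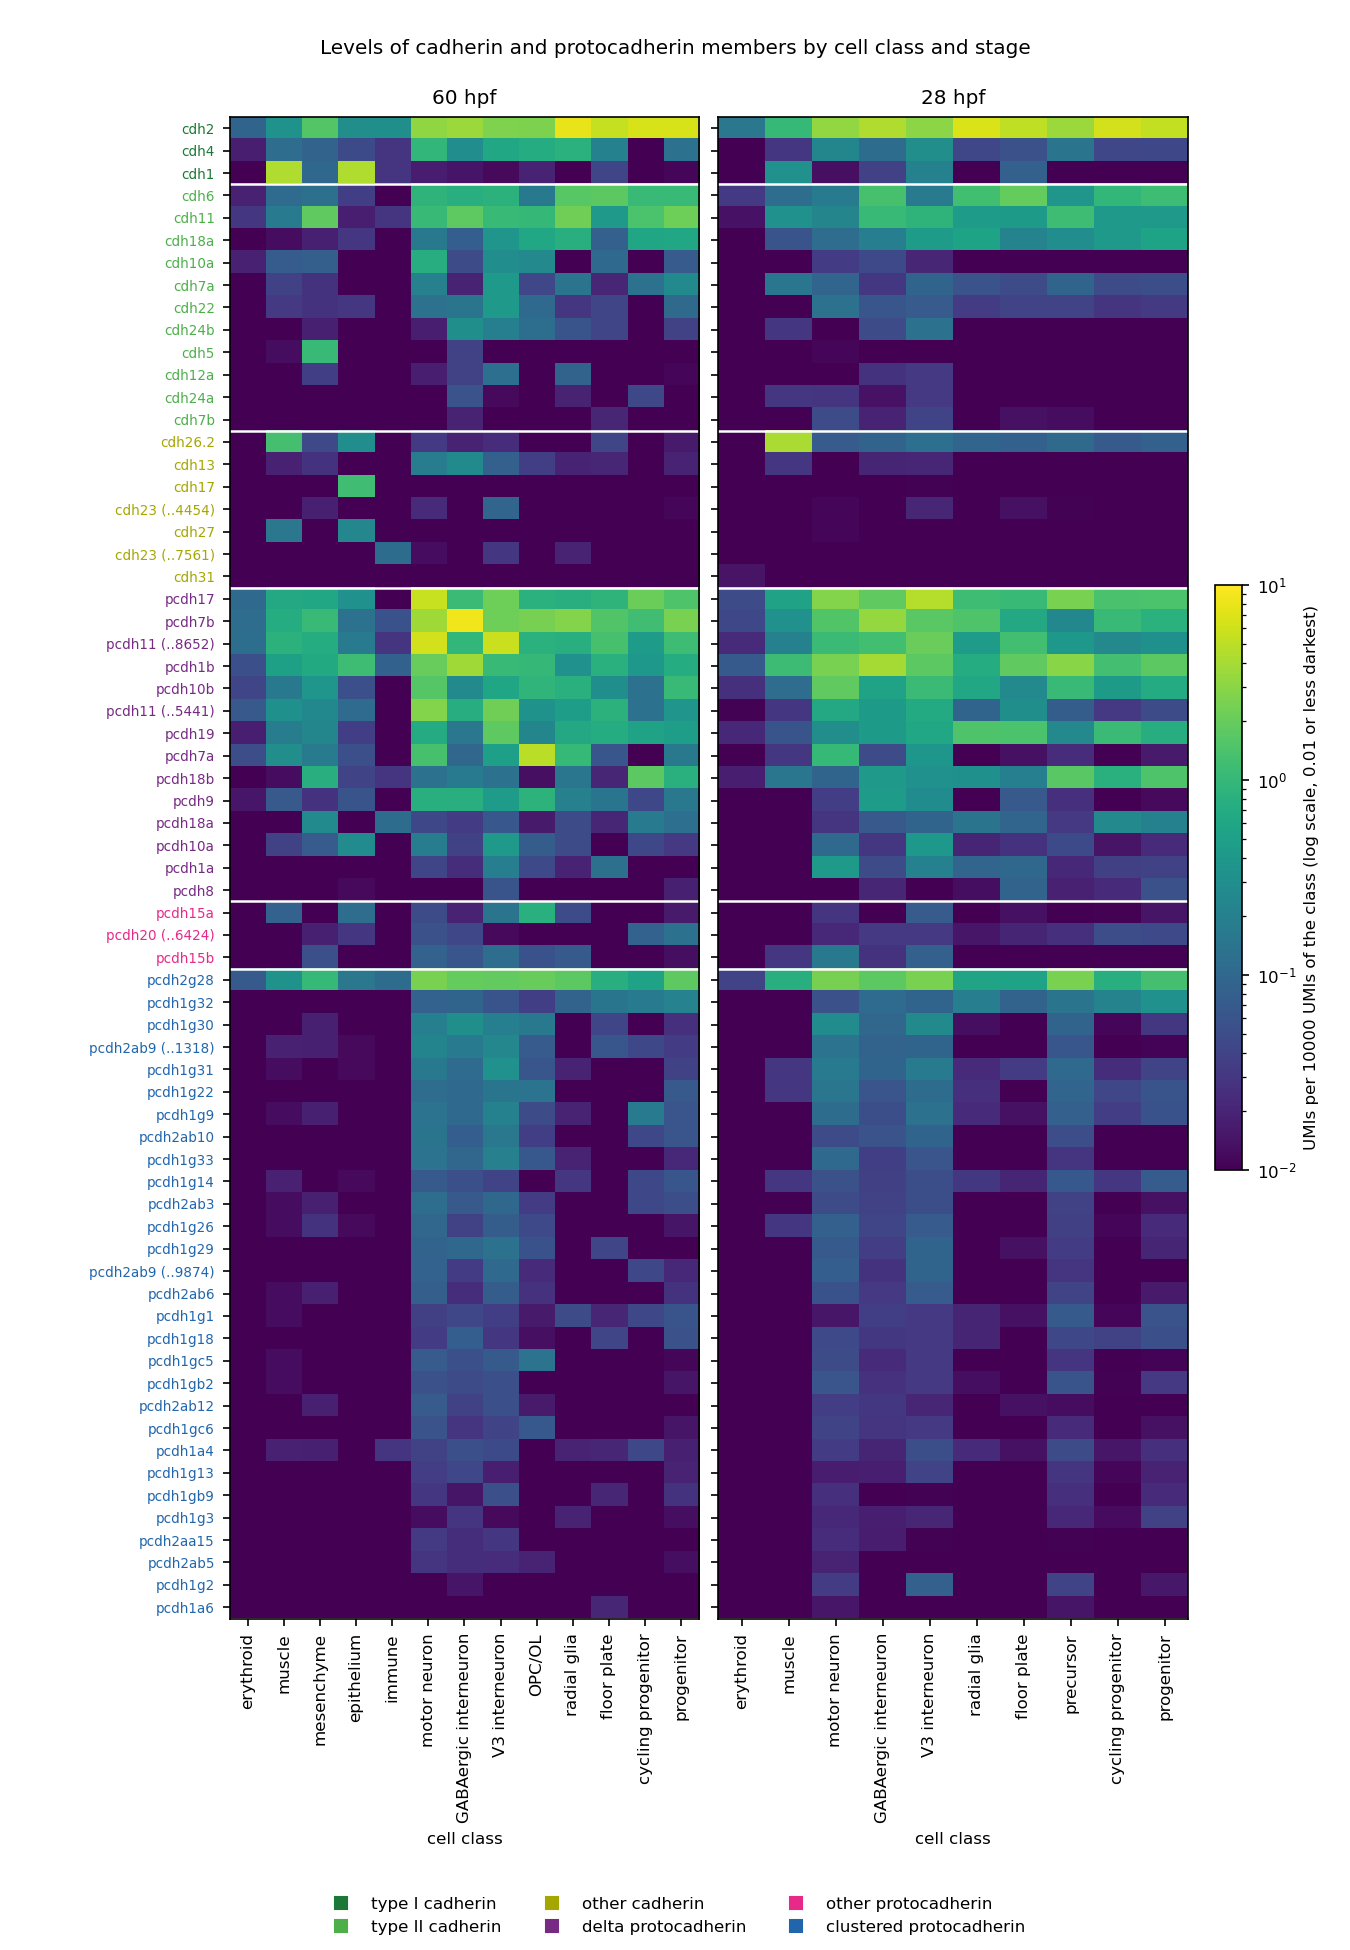
Level of each of the 67 members that passed at either stage (lines of the grid, grouped by subfamily as coloured) in each cell class (columns), in UMIs per 10000 UMIs of the class on a log colour scale, at 60 hpf on the left and 28 hpf on the right. The delta protocadherins form the brightest block in the neuronal classes, and cdh2 is bright in all neural classes.

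**Figure D2:**
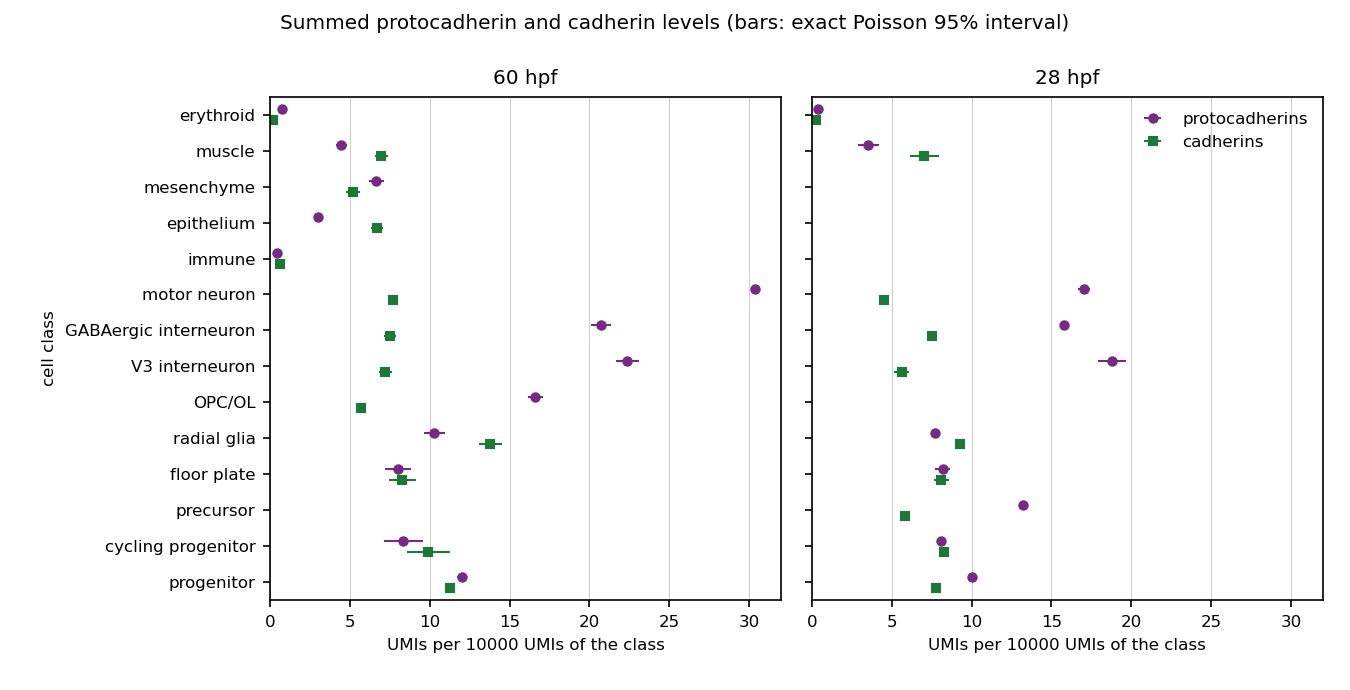
Summed protocadherin (circles) and cadherin (squares) levels by cell class, in UMIs per 10000 UMIs with exact Poisson 95% intervals, at 60 hpf on the left and 28 hpf on the right. Protocadherins reach 30.36 in motor neurons at 60 hpf, and in radial glia the cadherins stand above the protocadherins at both stages.

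Counted per cell after thinning each cell to 2000 UMIs, a motor neuron at 60 hpf carried on average 3.71 different protocadherins (SD 1.90 over 2545 cells) and a progenitor 1.72 (SD 1.33 over 757 cells). At 28 hpf the means were 2.77 in motor neurons and 1.63 in progenitors. In erythroid cells, which should carry few, they were 0.16 at 60 hpf and 0.07 at 28 hpf. Cadherins per cell ran the other way in radial glia, 1.69 at 60 hpf and 1.12 at 28 hpf, against 1.28 and 1.03 in progenitors. Cells are not replicates, and these spreads are among cells of 1 library.

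The first question the classes allow is how the family differed between neurons (motor neurons, GABAergic and V3 interneurons) and progenitors, with cycling progenitors included. At 60 hpf 32 of the 56 members tested were at least 2-fold higher in neurons and 6 were lower, where 26.9% of all 14129 genes were higher and 13.5% lower (40.4% in either direction). The median log2 ratio of the members was 1.09, against 0.30 over all genes. At 28 hpf 31 of 57 members were higher and 6 lower, where 27.3% of all 15298 genes were higher and 16.3% lower (43.6% in either direction), with medians of 1.35 and 0.17. Clustered protocadherins made up 17 of the rises at 60 hpf (of 26 tested, 1 fall) and 13 at 28 hpf (of 26, 1 fall), and delta protocadherins 8 at each stage (of 13 with 2 falls, and of 14 with 4 falls). Clustered members share exons, so the split of UMIs among them is uncertain and their counts are not counts of independent genes. The type II cadherins differed more between stages, with 2 of 8 higher and 1 lower at 60 hpf, and 7 of 10 higher and 1 lower at 28 hpf. Summed at 28 hpf, type II cadherins were at 2.85 in GABAergic interneurons, 1.95 in V3 interneurons and 0.887 in motor neurons. They were at 2.24 in non-cycling and 1.91 in cycling progenitors. Motor neurons made up 2663 of the 3265 neurons at 60 hpf, and GABAergic interneurons 1556 of the 2239 at 28 hpf. With GABAergic interneurons as the only neurons at 60 hpf, 9 members were higher and 8 lower. The share over all genes for that choice of neurons is not given here, so this count is a description only.

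**Figure D3:**
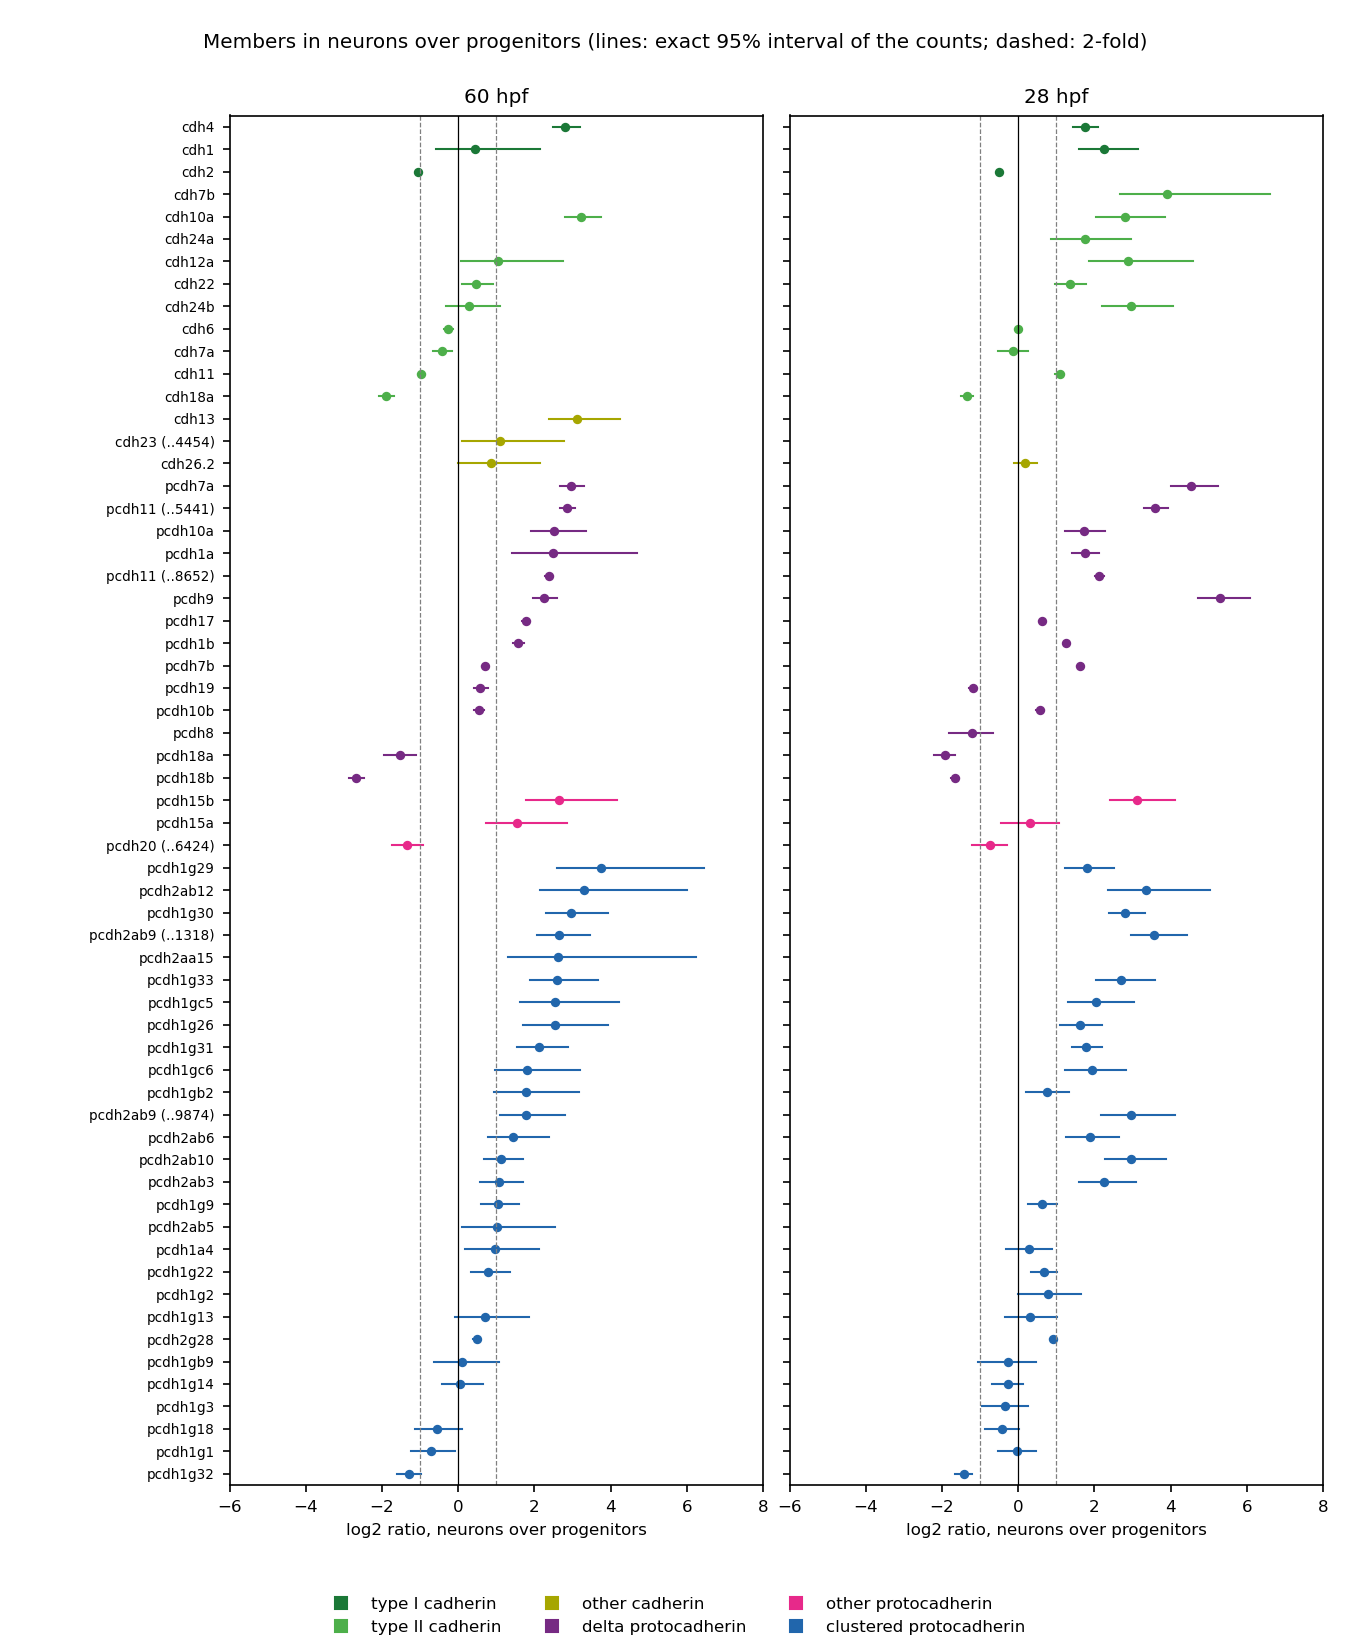
Log2 ratio of neurons over progenitors for each member tested (points, coloured by subfamily) with its exact 95% interval of the counts, at 60 hpf on the left and 28 hpf on the right; dashed lines mark 2-fold. Most clustered and delta protocadherins lie right of 0 at both stages, while pcdh18a, pcdh18b, cdh18a and pcdh1g32 lie left of the lower dashed line at both.

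Among type I cadherins, cdh2, which keeps the neural tube epithelium together, was at its highest in radial glia and progenitors. At 60 hpf its level was 3.21 in motor neurons (3.14 to 3.28), 3.54 in GABAergic interneurons and 2.61 in V3 interneurons, against 7.88 in radial glia (7.34 to 8.46) and 6.66 in progenitors (6.45 to 6.88). At 28 hpf cdh2 was at 3.28 in motor neurons (3.11 to 3.45), 4.39 in GABAergic interneurons and 3.55 in precursors, against 6.76 in radial glia and 5.37 in progenitors. Thus cdh2 fell by 1.06 on the log2 scale in neurons relative to progenitors at 60 hpf (interval −1.11 to −1.0), while the 28 hpf ratio of −0.50 stayed inside 2-fold. GABAergic interneurons were 1556 of the 2239 neurons at 28 hpf. Their summed progenitor markers were at 34.65, against 5.956 in 28 hpf motor neurons and 19.28 in 60 hpf GABAergic interneurons. The part of these transcripts in the 28 hpf ratio was not tested. The neuronal and progenitor intervals did not overlap at either stage. After thinning, a cdh2 UMI was seen in 39.7% of motor neurons and 60.8% of progenitors at 60 hpf (71.6% and 83.5% before thinning), against 1.13% of erythroid cells. Median depths before thinning were 6126 UMIs in motor neurons and 5655 in progenitors, against 31210.5 in erythroid cells.

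R-cadherin, cdh4, a second type I cadherin found in nervous tissue, went the opposite way. Its level was 0.979 in motor neurons (0.942 to 1.02), 0.835 in radial glia and 0.714 in OPC/OL at 60 hpf, against 0.134 in progenitors (0.105 to 0.168). At 28 hpf cdh4 stood at 0.241 in motor neurons and 0.142 in precursors, against 0.0441 in progenitors. On the log2 scale cdh4 rose in neurons by 2.81 at 60 hpf (interval 2.5 to 3.19), and the 28 hpf rise was 1.76 (1.44 to 2.11). E-cadherin, cdh1, the cadherin of epithelia, had only 0.0169 in motor neurons and 0.011 in progenitors at 60 hpf. At 28 hpf cdh1 was, like cdh4, at least 2-fold higher in neurons than in progenitors. Its level of 0.208 in V3 interneurons at 28 hpf was the highest among neural classes for cdh1.

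Type II cadherins divided into those held by progenitors and glia and those that were higher in neurons. Cdh18a fell in neurons at both stages: at 60 hpf its level was 0.163 in motor neurons (0.148 to 0.179) and 0.078 in GABAergic interneurons, against 0.628 in progenitors (0.563 to 0.698), a log2 ratio of −1.89 (−2.09 to −1.69) for neurons. At 28 hpf the ratio for cdh18a was −1.34 (−1.51 to −1.18). V3 interneurons kept more of it than the other neurons, 0.368 at 60 hpf and 0.447 at 28 hpf.

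Cdh10a was highest in motor neurons at 60 hpf, 0.738 (0.706 to 0.771), against 0.0488 in GABAergic interneurons and 0.0732 in progenitors (0.0523 to 0.0997). At 28 hpf cdh10a was low in all of these, 0.0328 in motor neurons, 0.0463 in GABAergic interneurons and 0.00588 in progenitors. The 60 hpf rise of cdh10a in neurons over progenitors was 3.21 (2.80 to 3.74), and the 28 hpf rise was 2.79 (2.05 to 3.85). GABAergic interneurons did not share the 60 hpf rise: with them as the only neurons the log2 ratio for cdh10a was −0.43. V3 interneurons, at 0.297, also stood above progenitors at 60 hpf.

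The remaining type II cadherins were patchy. Cdh7b, scarce at 3 UMIs in the 28 hpf progenitors, had 0.0482 in motor neurons (0.0302 to 0.0729) and 0.0191 in GABAergic interneurons at 28 hpf, and its ratio of 3.90 in neurons has an interval of 2.67 to 6.60. Its duplicate cdh7a was at 0.201 in motor neurons and 0.273 in progenitors at 60 hpf, a neuron to progenitor difference within 2-fold. At 60 hpf cdh24b had 0.018 in motor neurons, 0.312 in GABAergic interneurons (0.240 to 0.399) and 0.196 in V3 interneurons, against 0.0384 in progenitors. Its duplicate cdh24a had 0.0585 in GABAergic interneurons at 60 hpf, and 0.0285 in motor neurons at 28 hpf. Cdh11, known from mesenchyme and brain, was at 1.04 in motor neurons, 1.81 in GABAergic interneurons and 2.17 in progenitors at 60 hpf, and at 0.234, 1.06 and 0.417 in the same classes at 28 hpf. As classed, the order for cdh11 was not the same at both stages, which rested on the GABAergic interneurons of 28 hpf. Cluster 5, a large part of that class, held 27.9% predicted doublets. With predicted doublets removed, the 28 hpf difference in cdh11 between motor neurons and GABAergic interneurons was inside 2-fold, so this order is uncertain. Cdh6 was at 0.901 in motor neurons, 1.68 in radial glia and 1.06 in progenitors at 60 hpf, and at 0.175 in motor neurons, 1.34 in GABAergic interneurons and 1.16 in progenitors at 28 hpf.

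The delta protocadherins held most of the member UMIs and differed widely among neurons. Pcdh17, a delta protocadherin that acts in motor axon growth in zebrafish, was at 5.67 in motor neurons at 60 hpf (5.58 to 5.76), against 1.1 in GABAergic interneurons and 1.48 in progenitors (1.38 to 1.58). At 28 hpf pcdh17 was at 4.59 in V3 interneurons (4.17 to 5.04), 2.80 in motor neurons and 1.83 in GABAergic interneurons, against 1.41 in progenitors. Pcdh17 rose in neurons by 1.78 (1.69 to 1.89) at 60 hpf, and its 28 hpf ratio of 0.62 was inside 2-fold.

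Both identifiers named pcdh11 rose in neurons at both stages. The first, ENSDARG00000098652, had a pcdh11 level of 6.28 in motor neurons (6.19 to 6.38), 5.75 in V3 interneurons and 0.98 in GABAergic interneurons at 60 hpf, against 1.16 in progenitors. The second, ENSDARG00000105441, had 2.76 in motor neurons (2.70 to 2.82), 2.22 in V3 interneurons and 0.746 in GABAergic interneurons, against 0.364 in progenitors (0.315 to 0.418). In both, the 60 hpf motor and V3 neurons stood above the GABAergic interneurons as a class. At 28 hpf ENSDARG00000098652 was at 1.1 in motor neurons (1.01 to 1.2), not above 1.25 in GABAergic interneurons (1.2 to 1.31), with 2.07 in V3 interneurons. The log2 ratios in neurons at 60 hpf were 2.38 (2.27 to 2.5) and 2.86 (2.67 to 3.08), and at 28 hpf the pcdh11 ratios were 2.13 and 3.60.

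Pcdh7a and its duplicate pcdh7b marked different classes. At 60 hpf pcdh7a was at 4.95 in OPC/OL (4.70 to 5.20), 1.36 in motor neurons (1.31 to 1.40) and 1.03 in radial glia (0.836 to 1.25), against 0.0975 in GABAergic interneurons and 0.161 in progenitors. At 28 hpf pcdh7a was at 1.01 in motor neurons (0.921 to 1.11), against 0.0492 in GABAergic interneurons and 0.0167 in progenitors. Pcdh7b had instead its highest level in GABAergic interneurons, 8.63 at 60 hpf (8.23 to 9.04) and 3.35 at 28 hpf (3.26 to 3.43), against 2.52 and 0.828 in progenitors. The pcdh7a ratio of neurons over progenitors was 4.53 at 28 hpf (4.0 to 5.24). It was 2.97 at 60 hpf (2.68 to 3.31), and −0.61 there with GABAergic interneurons as the only neurons. After thinning, a pcdh7a UMI was seen in 42.2% of OPC/OL cells, 23.8% of motor neurons and 2.51% of progenitors at 60 hpf, and in 0.377% of erythroid cells (69.1%, 48.4%, 6.95% and 5.28% before thinning).

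Pcdh9 was alike in motor neurons and GABAergic interneurons at 60 hpf and not at 28 hpf. Its level at 60 hpf was 0.765 in motor neurons (0.733 to 0.799), 0.785 in GABAergic interneurons (0.668 to 0.916) and 0.870 in OPC/OL, against 0.159 in progenitors. At 28 hpf pcdh9 was at 0.035 in motor neurons, 0.455 in GABAergic interneurons (0.424 to 0.488) and 0.291 in V3 interneurons, against 0.0118 in progenitors. The motor neuron and GABAergic intervals for pcdh9 overlapped at 60 hpf and were apart at 28 hpf. It rose in neurons by 2.26 at 60 hpf (1.97 to 2.60), with a 28 hpf rise of 5.29 (4.73 to 6.08).

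The delta protocadherins that fell in neurons were led by a duplicated pair. Pcdh18b was at 0.130 in motor neurons (0.117 to 0.144) and 0.166 in GABAergic interneurons at 60 hpf, against 0.804 in progenitors (0.730 to 0.882), and at 0.092 and 0.424 at 28 hpf, against 1.49 in progenitors and 1.69 in precursors. Pcdh18a was at 0.0442 in motor neurons against 0.126 in progenitors at 60 hpf, and at 0.0285 in motor neurons against 0.208 in progenitors at 28 hpf. The neuronal log2 ratios were −2.67 (−2.86 to −2.48) for pcdh18b and −1.53 (−1.94 to −1.09) for pcdh18a at 60 hpf, and −1.66 and −1.92 at 28 hpf. Pcdh19, which works with N-cadherin in the zebrafish neural plate and is mutated in a human epilepsy, fell in neurons at 28 hpf (−1.19, −1.30 to −1.08), while its 60 hpf level was 0.699 in motor neurons and 1.79 in V3 interneurons, against 0.478 in progenitors. Pcdh8, the paraxial protocadherin of early mesoderm, fell at 28 hpf (−1.21, −1.83 to −0.66), and in the progenitor clusters of that stage it was mostly in cluster 14, at 0.165 (0.119 to 0.224) against 0.0208 in cluster 2. Cluster 14 is led by hoxb13a and cdx4, genes of the posterior body.

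**Figure D4:**
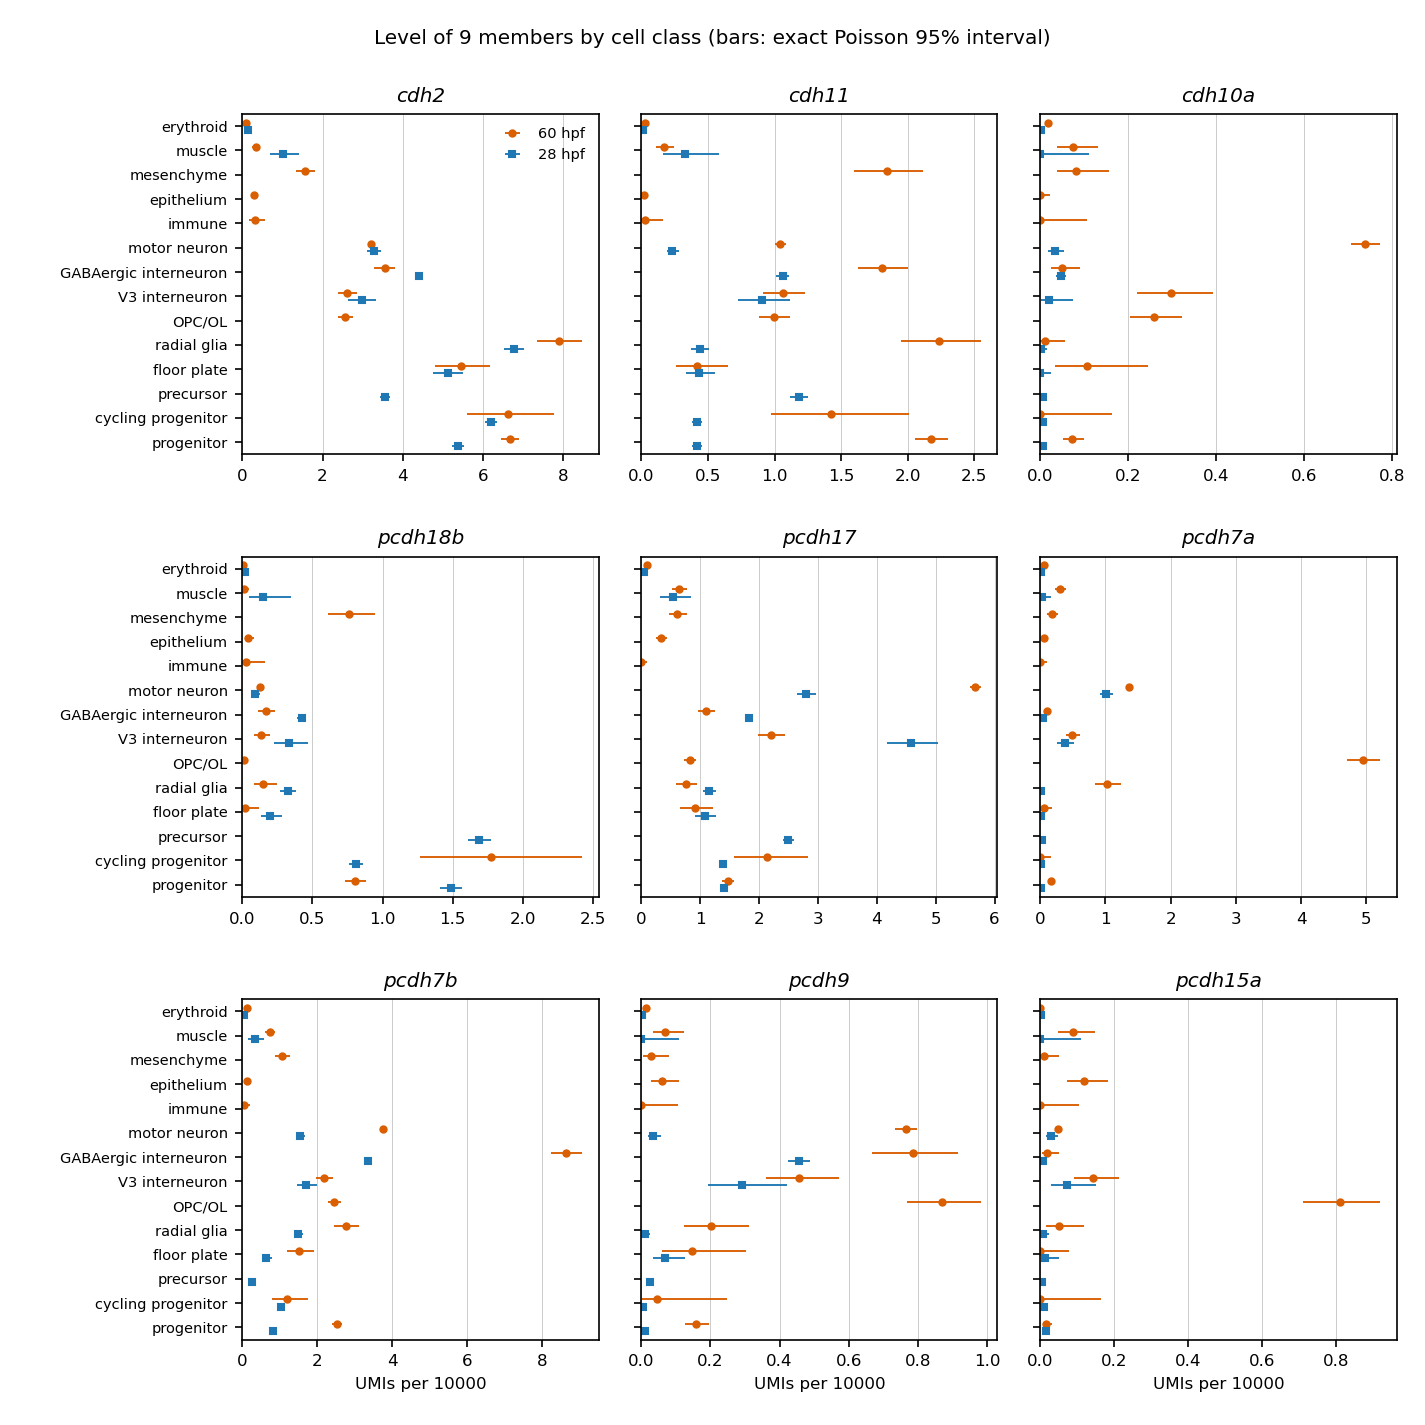
Levels of cdh2, cdh11, cdh10a, pcdh18b, pcdh17, pcdh7a, pcdh7b, pcdh9 and pcdh15a by cell class, in UMIs per 10000 UMIs with exact Poisson 95% intervals, at 60 hpf (circles) and 28 hpf (squares); each panel has its own axis starting at 0. Pcdh7a reaches 4.95 in OPC/OL, and cdh10a reaches 0.738 in motor neurons at 60 hpf but 0.0328 at 28 hpf.

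Among the other protocadherins, pcdh15a and pcdh15b encode duplicates of the tip-link protein of sensory hair cells. Pcdh15b was at 0.088 in motor neurons against 0.0128 in progenitors at 60 hpf, and at 0.164 against 0.00392 at 28 hpf. Its neuronal rise was 2.65 at 60 hpf (1.78 to 4.17), and the 28 hpf rise was 3.12 (2.40 to 4.11). Pcdh15a had 0.810 in OPC/OL at 60 hpf (0.711 to 0.918), against 0.0479 in motor neurons and 0.0165 in progenitors. Pcdh20 (ENSDARG00000036424) went the other way, at 0.0556 in motor neurons and 0.00332 in OPC/OL against 0.134 in progenitors at 60 hpf, and its neuronal ratio of −1.34 (−1.73 to −0.92) was −0.80 when clusters were drawn at a higher resolution.

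Outside the classical types, cdh13, the membrane-anchored T-cadherin that lacks a cytoplasmic tail, was at 0.183 in motor neurons (0.168 to 0.200) and 0.263 in GABAergic interneurons (0.198 to 0.344) at 60 hpf, against 0.0201 in progenitors, a neuronal rise of 3.12 (2.39 to 4.25). At 28 hpf cdh13 had 50 UMIs in all groups together and was not tested between neurons and progenitors.

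Summed, the clustered protocadherins stood above non-cycling progenitors in each neuronal class at both stages, by less than 2-fold. The constant exons that members of an array share lie at the 3′ end of the transcript, where a 3′ library reads, so the split of UMIs among members of one array is uncertain and their sum is the firmer value. By the RefSeq annotation, used for names and chromosomes only, 17 of the 36 identifiers lie on chromosome 10, 12 on chromosome 14 and 7 had no match. Summed, they stood at 4.81 in motor neurons (4.73 to 4.90), 4.47 in V3 interneurons, 3.86 in GABAergic interneurons and 3.15 in OPC/OL at 60 hpf, against 2.79 in progenitors (2.65 to 2.93) and 2.14 in radial glia. At 28 hpf they stood at 4.38 in motor neurons (4.19 to 4.58), 4.36 in V3 interneurons, 3.84 in precursors and 2.85 in GABAergic interneurons, against 2.33 in progenitors, 1.33 in cycling progenitors and 1.04 in radial glia. The identifier with most UMIs, pcdh2g28, was at 2.52 in motor neurons and 1.79 in progenitors at 60 hpf and at 2.46 and 1.31 at 28 hpf, inside 2-fold in neurons over progenitors at both stages (0.49 and 0.91).

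Single clustered members changed more. Pcdh1g29 had 0.091 in motor neurons and 0.102 in GABAergic interneurons against 0.00549 in progenitors at 60 hpf, where it rested on 3 UMIs in all progenitors (ratio 3.75, 2.60 to 6.45), and pcdh2ab12, also on 3, had a ratio of 3.31 (2.16 to 6.01). Pcdh2ab9 (ENSDARG00000101318) had 0.225 in motor neurons against 0.033 in progenitors at 60 hpf and 0.140 against 0.0108 at 28 hpf, with ratios of 2.66 (2.08 to 3.47) and 3.57 (2.95 to 4.42) for neurons. The clustered member that fell was pcdh1g32, at 0.0873 in motor neurons against 0.212 in progenitors at 60 hpf, and at 0.0547 against 0.328 at 28 hpf, with neuronal ratios of −1.30 (−1.61 to −0.97) and −1.42 (−1.65 to −1.21).

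Precursors, the 28 hpf class with insm1b, neurod4 and delta genes, differed from progenitors in the clustered members. Of 42 members tested, 16 were higher in precursors and 4 lower, where 17.3% of all 13298 genes were higher and 24.2% lower (41.5% in either direction), with median log2 ratios of 0.89 and −0.01. Of the 21 clustered protocadherins tested 13 were higher and 0 were lower, whereas 1 of 12 delta protocadherins was higher and 3 were lower. The uncertain split of UMIs among clustered members holds for this count too. The largest rises were those of pcdh2ab9 (ENSDARG00000101318, 0.0637 in precursors against 0.00796 in progenitors, ratio 2.95), pcdh2ab10 (2.80), pcdh1g30 (2.19), pcdh2ab3 (2.17) and pcdh1g2 (2.1). Cdh11 was also higher, at 1.18 against 0.418 (1.5, 1.37 to 1.62).

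The falls in precursors were pcdh18a at 0.0313 against 0.235 (−2.86, −3.49 to −2.38), pcdh7b at 0.254 against 0.946 (−1.89, −2.1 to −1.71), pcdh19 at 0.257 against 0.942 (−1.87) and cdh6 at 0.369 against 1.06 (−1.52). Pcdh7b thus stood lower in precursors than in the pooled neurons, where it was at 2.91. That pooled value rested mostly on GABAergic interneurons, at 3.345, with the next class, V3 interneurons, at 1.706. The duplicates pcdh18a and pcdh18b parted here, since pcdh18b was at 1.69 in precursors against 1.11 in progenitors with cycling ones included (0.60, inside 2-fold). Within the class, pcdh18b was at 3.33 in cluster 8 (3.16 to 3.52), which is led by neurod4 and ebf2, and at 0.485 in cluster 4 (0.428 to 0.546), led by onecut genes. Cdh11 divided the same clusters in the other direction, at 0.632 in cluster 8 and 1.58 in cluster 4.

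Cycling progenitors were compared with non-cycling ones at 28 hpf. Of 29 members 0 were higher and 4 were lower in cycling cells, where 5.89% of all 11857 genes were higher and 1.73% lower (7.62% in either direction), with median log2 ratios of −0.42 and 0.01. The 4 were pcdh1g1 at 0.0113 against 0.0578 (−2.28, −3.31 to −1.50), pcdh1g3 (−1.60), pcdh1g14 (−1.30) and pcdh8 at 0.0234 against 0.0559 (−1.23). Cdh2 was at 6.20 in cycling and 5.37 in non-cycling progenitors (0.21, 0.16 to 0.26). The count is small and moved with the cells used, to 1 when cells needed at least 1500 genes.

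Motor neurons and GABAergic interneurons were the largest neuronal classes. At 60 hpf 14 of 55 members were higher in motor neurons and 4 lower, where 15.2% of all 13284 genes were higher and 18.5% lower (33.7% in either direction), with median log2 ratios of 0.36 and −0.01. Of 13 delta protocadherins 7 were higher and 1 was lower. The rises were led by cdh10a (3.78, 3.04 to 4.98), pcdh7a (3.73, 3.17 to 4.51), cdh7a at 0.201 against 0.0195 (3.05), pcdh11 (ENSDARG00000098652, 2.67) and pcdh10b at 1.63 against 0.268 (2.58, 2.22 to 3.01). Pcdh10b is the duplicate of pcdh10a, which was at 0.188 in motor neurons against 0.039 (2.1). The 4 lower ones were cdh24b at 0.018 against 0.312 (−4.11, −4.68 to −3.55), pcdh1g18 (−1.28), cdh12a at 0.018 against 0.039 (−1.25, with an interval of −2.20 to 0.18 that crosses 0) and pcdh7b at 3.76 against 8.63 (−1.20, −1.27 to −1.13).

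At 28 hpf 17 of 49 members were higher in motor neurons and 9 lower, where 15.2% of all 12845 genes were higher and 21.9% lower (37.1% in either direction), with median log2 ratios of 0.60 and 0.06. The rises were led by pcdh7a (4.35, 4.03 to 4.71), pcdh1a at 0.414 against 0.0481 (3.10, 2.73 to 3.5), pcdh15b (2.58), pcdh10a (1.86) and pcdh10b at 1.84 against 0.540 (1.77). Its duplicate pcdh1b, by contrast with pcdh1a, was at 2.52 in motor neurons and 3.92 in GABAergic interneurons. The falls were led by pcdh9 (−3.61, −4.51 to −2.99), cdh6 at 0.175 against 1.34 (−2.92), cdh24b (−2.51), pcdh18b and cdh11 (−2.17 each). When predicted doublets were removed, or clusters 5 and 12 left out, 14 members changed at 28 hpf in place of 26, and without the doublets cdh11 stood at −0.40 and pcdh18b at −0.68. Between the GABAergic clusters of 28 hpf, pcdh18b was at 0.561 in cluster 5 and 0.0796 in cluster 9.

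Members also differed between clusters of one neuronal class at 60 hpf. Motor neurons fell into cluster 0 (1239 cells, led by bmp16 and esrrga), cluster 6 (788 cells, gfra1a and nefmb), cluster 15 (379 cells, col19a1 and calca) and cluster 19 (243 cells, led by hox13 genes of the posterior trunk). For cdh10a the level was 1.13 in cluster 6 (1.03 to 1.24) and 0.763 in cluster 0, but at 0.144 in cluster 15 (0.0983 to 0.203) and 0.125 in cluster 19. The level of cdh4 was highest in cluster 15 at 1.64 (1.48 to 1.82), close together in clusters 0 and 6 (0.947 and 0.953, overlapping intervals), and lowest in cluster 19 at 0.294 (0.203 to 0.413). Cdh11 was at 1.28 in cluster 0 and 1.14 in cluster 19, whose intervals overlap, and at 0.299 and 0.292 in clusters 6 and 15.

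Protocadherins drew other lines through the same cells. For pcdh17 the level was 6.72 in cluster 0 (6.61 to 6.84), 4.03 in cluster 15, 3.73 in cluster 19 and 1.99 in cluster 6 (1.85 to 2.13). Pcdh10b was at 2.80 in cluster 15 (2.58 to 3.03) and 0.437 in cluster 19 (0.323 to 0.578), with 1.56 and 1.63 in clusters 0 and 6. Pcdh9 was at 0.993 in cluster 6 and 0.135 in cluster 15 (0.0909 to 0.192), and pcdh7a at 2.47 in cluster 15 and 0.985 in cluster 0.

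The GABAergic clusters of 60 hpf also differed. Cluster 18 (68 cells at 60 hpf, led by urp1 and urp2) and cluster 20 (232 cells, led by tac3a and nppc) carried urp1 and sst1.1 among their leading genes, each known from neurons that contact the spinal fluid. Both pcdh11 identifiers were present in cluster 18, at 3.62 (3.04 to 4.29) and 2.71, and low in cluster 20, at 0.348 (0.252 to 0.469) and 0.186. Cdh24b had 0 UMIs in cluster 18, with an upper bound of 0.099, and 0.445 in cluster 20 (0.336 to 0.580), while its duplicate cdh24a was at 0.268 in cluster 18 (0.129 to 0.494) and had 0 UMIs in cluster 20, with an upper bound of 0.0299. The duplicates cdh24a and cdh24b were thus each seen in the cluster where the other was not detected. Cdh24a had only 48 UMIs over all groups at 60 hpf, under the limit, so this rests on few counts.

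**Figure D5:**
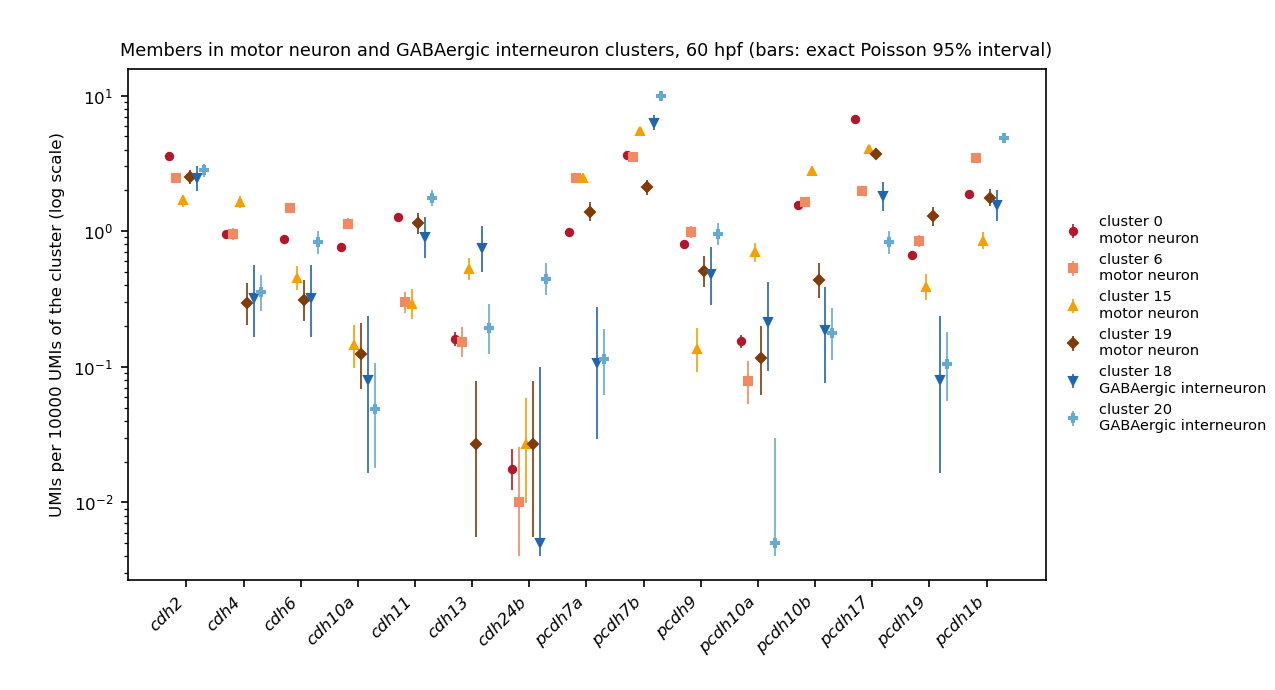
Levels of 15 members in the motor neuron clusters 0, 6, 15 and 19 and the GABAergic interneuron clusters 18 and 20 at 60 hpf, in UMIs per 10000 UMIs on a log axis with exact Poisson 95% intervals; levels of 0 are drawn at the foot of the plot. Cdh10a separates clusters 0 and 6 from clusters 15 and 19, and pcdh10b separates all motor neuron clusters from both GABAergic clusters.

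The OPC/OL cells at 60 hpf differed from progenitors in both directions. Of 27 members 8 were higher and 8 lower, where 19.4% of all 9579 genes were higher and 14.4% lower (33.7% in either direction), with median log2 ratios of −0.01 and 0.26. The rises were led by pcdh15a at 0.810 against 0.0158 in all progenitors (5.53, 4.73 to 6.82) and pcdh7a at 4.95 against 0.155 (4.98, 4.69 to 5.33). In the mouse Pcdh15 is a known gene of oligodendrocyte precursors. They were followed by pcdh1g30 (2.65), pcdh9 (2.48) and cdh4 at 0.714 against 0.128 (2.46, 2.09 to 2.88). A pcdh15a UMI was seen in 12.4% of thinned OPC/OL cells (25.1% before thinning), in 0.132% of progenitors and in 0 of 530 erythroid cells (exact upper bound 0.694%).

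The falls in OPC/OL were led by pcdh18b, which was at 0.0133 in OPC/OL against 0.842 (−5.67, −7.87 to −4.62) and its duplicate pcdh18a at 0.0166 against 0.128 (−2.71). Pcdh20 rested on 1 UMI in OPC/OL (−4.33, −10.63 to −2.79). Cdh6 was at 0.163 against 1.06 (−2.68, −3.15 to −2.28), cdh7a at 0.0431 against 0.267 (−2.53) and cdh2 at 2.56 against 6.66 (−1.38, −1.49 to −1.27). The summed level of erythroid markers was 362.2 in OPC/OL and 25.75 in progenitors of the same library, and with hemoglobin and mitochondrial genes taken out of the totals the same number of members, 16, changed. That setting alters the totals only. Predicted doublets were 8.6% of the OPC/OL cluster, and their part in these ratios was not tested.

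Radial glia were next set against progenitors. At 60 hpf 2 of 21 members were higher and 6 lower, where 16.3% of all 8361 genes were higher and 13.4% lower (29.8% in either direction), with median log2 ratios of 0.02 and 0.03. Pcdh7a at 1.03 against 0.155 (2.73, 2.30 to 3.16) and cdh4 at 0.835 against 0.128 (2.70, 2.23 to 3.17) were the rises, the same genes that were higher in OPC/OL. Pcdh18b fell at 0.151 against 0.842 (−2.39, −3.33 to −1.75), with pcdh20 (−2.73, from 1 UMI), cdh22 (−1.42), pcdh18a (−1.11), pcdh1g32 (−1.08) and pcdh1b (−1.04). When clusters were drawn at a higher resolution the ratios of pcdh20, cdh22 and pcdh1g32 turned positive (0.86, 2.54 and 0.68).

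At 28 hpf 2 of 32 members were higher in radial glia and 5 lower, where 5.95% of all 12458 genes were higher and 6.66% lower (12.6% in either direction), with median log2 ratios of −0.31 and 0.10. Of these radial glia 553 were in cluster 11, led by nkx2.2b and slc1a3a. Most of those of 60 hpf, 110 of 122, were in cluster 23, led by slc4a4a and slc1a2b. In cluster 11 the radial glia list had a median log2 ratio of 1.4972 and the floor plate list one of 1.0092. The name of the 28 hpf class is therefore less certain, and floor plate-like cells among them were not separated. The rises were pcdh1a at 0.0949 against 0.0376 (1.36, 0.74 to 1.91) and pcdh11 (ENSDARG00000105441) at 0.0923 against 0.0394 (1.25). Pcdh18b was lower again, at 0.323 against 1.11 (−1.78, −2.06 to −1.53), as were pcdh20 (−1.47), pcdh8 (−1.32), pcdh1g3 (−1.25) and pcdh1b (−1.03). Pcdh8 moved to 0.11 when cells needed at least 1500 genes, and 4 members changed then in place of 7.

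Between stages the progenitors came mostly from different clusters. At 60 hpf 695 of the 791 progenitors, cycling ones included, were in cluster 7, and at 28 hpf nearly all were in clusters 1, 2, 14 and 27, so values are given by cluster. Cdh11 was at 2.19 in cluster 7 at 60 hpf (2.06 to 2.32), against 0.404, 0.228 and 1.0 in clusters 1, 2 and 14 at 28 hpf. Pcdh7b was at 2.66 in cluster 7 (2.51 to 2.80), against 1.05, 0.799 and 0.923 in clusters 1, 2 and 14. The level of pcdh9 was 0.172 in cluster 7, against 0.00668, 0.0104 and 0.0161 in clusters 1, 2 and 14, and that of pcdh7a 0.176, against 0.00585, 0.0143 and 0.0242. In each of these the 60 hpf cluster lay above all 3 of the 28 hpf clusters. Clusters 1 and 14 also held 23 and 51 cells at 60 hpf, which are not compared here. Differences of stage and of cluster cannot be told apart in these values.

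Summed over these clusters, 12 of 38 members were higher at 60 hpf and 3 lower, where 20.4% of all 12894 genes were higher and 14.4% lower (34.8% in either direction), with median log2 ratios of 0.40 and 0.24. The largest rises were those of pcdh9 (4.08, 3.42 to 4.91), pcdh7a (3.82, 3.20 to 4.58), cdh10a (3.54), pcdh11 (ENSDARG00000105441, 3.17) and pcdh2ab10 (3.07). Of the 6 type II cadherins tested 4 were higher and 0 lower, among them cdh11 at 2.14 against 0.418 (2.36, 2.23 to 2.48). The falls were cdh26.2 at 0.0158 against 0.0765 (−2.13), pcdh1a (−2.11, −4.33 to −1.01) and pcdh1b at 0.700 against 1.49 (−1.08). The summed neuron markers were at 35.12 in non-cycling progenitors at 60 hpf and 18.14 at 28 hpf; their part in these differences was not tested. At the higher clustering resolution 8 members changed in place of 15.

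Neurons likewise came from clusters 0, 6, 15 and 19 (motor neurons), 18 and 20 at 60 hpf, and from cluster 10 (motor neurons), 5, 9 and 18 at 28 hpf, with V3 interneurons in cluster 13 at both. Among 61 members 23 were higher at 60 hpf and 7 lower, where 17.4% of all 15750 genes were higher and 16.4% lower (33.7% in either direction), with median log2 ratios of 0.81 and 0.25. Cdh10a was at 0.668 against 0.0425 (3.96, 3.68 to 4.28), cdh13 at 0.183 against 0.0171 (3.39), cdh4 at 0.915 against 0.149 (2.61), pcdh11 (ENSDARG00000105441) at 2.60 against 0.481 (2.43) and pcdh7a at 1.23 against 0.256 (2.26). Cdh10a was at 0.125 or more in each of clusters 0, 6, 15 and 19 and at 0.0329 in cluster 10 (0.0184 to 0.0542). The mix of neurons differed between the stages as well. With GABAergic interneurons as the only neurons 17 members changed in place of 30, and cdh10a stood at 0.19 between stages; with motor neurons as the only neurons pcdh7a stood at 0.42.

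The members lower in neurons at 60 hpf were led by cdh7b (−2.02, −2.90 to −1.31), pcdh8 (−1.78), cdh26.2 at 0.0314 against 0.0873 (−1.47), pcdh18b at 0.132 against 0.353 (−1.42) and pcdh1a at 0.0492 against 0.128 (−1.38). By motor neuron cluster, pcdh1a was at 0.0238 to 0.130 in clusters 0, 6, 15 and 19 at 60 hpf against 0.414 in cluster 10 at 28 hpf. For pcdh18b the ratio was −0.01 without clusters 5 and 12 and 0.47 with motor neurons as the only neurons, and for cdh7b it was 0.31 with GABAergic interneurons as the only neurons.

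Pooled non-neural cells, most of them erythroid, were low in nearly the whole family, with a few members of their own. At 60 hpf 5 of 61 members were higher in non-neural than in neural cells and 56 were lower, where 13.2% of all 16493 genes were higher and 69.3% lower (82.5% in either direction), with median log2 ratios of −4.24 and −1.98. All 27 clustered and all 13 delta protocadherins tested were lower. Erythroid cells made up 530 of the 852 non-neural cells at 60 hpf and 723 of 771 at 28 hpf, and their summed protocadherin level was 0.727 and 0.357. The other non-neural classes were not all low in cadherins. At 60 hpf the summed cdh level was 6.96 in the muscle cluster, 6.69 in epithelium, 5.17 in mesenchyme and 0.63 in immune cells. It was 0.215 in erythroid cells and 7.71 in motor neurons. In the muscle cluster 61 of the 81 cells were called epithelium at a higher clustering resolution (below). Those cells held 699 UMIs of cdh1 among the 1112 cdh UMIs of the cluster. Without erythroid cells 56 members passed the rule at 60 hpf, higher and lower ones together. The share over all genes without erythroid cells is not given here, so this count is a description only.

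The 5 higher members were found in epithelium, muscle or mesenchyme. Cdh17, the liver-intestine cadherin of mammals and a gene of the kidney ducts in zebrafish, was at 1.19 in epithelium (1.03 to 1.37), a cluster led by icn2, cyt1l, ins and apoa2, and at 0.00111 in motor neurons (ratio 6.28 for non-neural over neural cells). Cdh1 was at 4.42 in epithelium (4.11 to 4.75) and 4.45 in the muscle cluster (overlapping intervals), and at 0.011 in progenitors (5.39, 5.06 to 5.79). VE-cadherin, cdh5, the cadherin of blood vessels, was at 1.07 in mesenchyme (0.888 to 1.28) and had 0 UMIs in progenitors (4.06), and this cluster also carried endothelial markers, summed to 4.15 UMIs per 10000. Cdh27 was at 0.243 in epithelium and 0.157 in the muscle cluster, also with overlapping intervals (3.68). At the higher clustering resolution described below, epithelium held 66 of the 75 cdh27 UMIs at 60 hpf. Cdh26.2 was at 1.29 in muscle and 0.0165 in progenitors (2.16).

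The muscle cluster divided at the higher clustering resolution. Its epithelium markers summed to 484.2 at 60 hpf, and its cdh1 level was 4.45. After that division 61 of its 81 cells at 60 hpf were called epithelium, with cdh1 at 7.22 (6.69 to 7.78), cdh26.2 at 0.0516 and M-cadherin, cdh15, at 0 UMIs. The 19 that stayed muscle had cdh26.2 at 3.38 (2.93 to 3.88), cdh1 at 0.0673 and cdh15 at 0.0841. At 28 hpf the 18 that stayed muscle had cdh26.2 at 4.41 (3.71 to 5.20), cdh15 at 0.693 and 0 UMIs of cdh1. The cdh1 of the muscle cluster was therefore in the cells with epithelial markers and the cdh26.2 in the others.

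At 28 hpf 1 of 61 members was higher in non-neural cells and 58 were lower, where 5.08% of all 16826 genes were higher and 74.8% lower (79.8% in either direction), with median log2 ratios of −4.39 and −2.27. The one was cdh31, at 0.0140 against 0.00315 (2.12, 1.31 to 3.04). It rested on few counts, with 54 UMIs over all groups at 28 hpf, little above the limit, and 35 of them in erythroid cells. Its level in erythroid cells, 0.01439 (0.01003 to 0.02002), had an interval that overlapped that of progenitors, the next class. The largest falls were those of pcdh1g33 (−6.08), pcdh2ab3 (−5.98), pcdh1gc6 and pcdh1g30 (−5.58 each) and pcdh9 (−5.52). Without erythroid cells 48 cells were left at that stage, and 27 members passed the rule in either direction, again without a share over all genes. At 60 hpf the largest falls were those of pcdh1g22 (−6.87), pcdh2ab9 (ENSDARG00000089874, −6.21), pcdh1g13 (−5.98), cdh13 (−5.47) and pcdh1g32 (−5.44).

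The intracellular partners of cadherins were followed in a list of 20 catenin and junction genes, of which 19 were found. In neurons over progenitors 6 of 19 were higher and 4 lower at 60 hpf, and 8 higher and 3 lower at 28 hpf, where 26.9% and 27.3% of all genes were higher and 13.5% and 16.3% lower at these stages. The alpha-catenins differed: ctnna2, the neuronal form, was at 7.32 in neurons and 3.94 in progenitors at 60 hpf (0.89) and at 3.63 against 1.15 at 28 hpf (1.66), while ctnna1, the widespread form, was at 0.182 against 0.754 (−2.05, −2.23 to −1.87) and at 0.293 against 0.789 (−1.43). Beta-catenin, ctnnb1, was at 1.33 in neurons against 2.26 at 60 hpf (−0.76). Plekha7a, a partner of p120 catenin at junctions, was at 0.0357 in motor neurons, against 5.64 in GABAergic interneurons, at 60 hpf, a motor neuron over GABAergic ratio of −7.29 (−7.62 to −7.00). In motor neurons over GABAergic interneurons 3 of 19 partners were higher and 7 lower at 60 hpf, and 1 higher and 10 lower at 28 hpf, where 15.2% of all genes were higher at each stage and 18.5% and 21.9% lower.

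In the wider cadherin superfamily, 16 of 25 listed genes were found. In neurons over progenitors at 60 hpf 7 of 14 were higher and 6 lower (26.9% and 13.5% of all genes), with the flamingo cadherins parting: celsr3 was at 0.973 in neurons against 0.396 (1.29, 1.1 to 1.5) and celsr1b at 0.108 against 0.615 (−2.51, −2.73 to −2.29). The calsyntenin clstn3, a synaptic cadherin, was at 0.428 in neurons against 0.0193 (4.34, 3.62 to 5.47). In OPC/OL over progenitors 0 of 10 were higher and 8 lower (19.4% and 14.4% of all genes), among them fat1a, a giant cadherin, at 0.0564 against 0.825 (−3.79, −4.66 to −3.17).

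The 7 pairs of duplicated genes were set side by side over the 23 class and stage values. Pcdh18a and pcdh18b were most alike (Pearson correlation of log2 levels 0.74), and pcdh1a with pcdh1b (0.56), pcdh7a with pcdh7b (0.54), pcdh15a with pcdh15b (0.53), pcdh10a with pcdh10b (0.52) and cdh24a with cdh24b (0.45) stood between them and cdh7a with cdh7b (0.06). These points share 2 libraries and differ in depth, and the correlations are descriptions. By point level, members of 6 of the 7 pairs were highest in different classes or stages. Cdh24a and cdh24b were both highest in GABAergic interneurons at 60 hpf, though in different clusters of that class. Some of these peaks were not apart from the next class: pcdh18a in mesenchyme at 60 hpf (0.273, 0.184 to 0.389) overlapped cycling progenitors (0.178, up to 0.455), where pcdh18b was highest. No share over unrelated gene pairs was taken, so the count is a description only.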

How the data were processed

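Droplet-based 3′ libraries of sorted olig2:dsRed cells, 1 at 28 hpf and 1 at 60 hpf, were analysed. The deposited files held UMI counts per gene and cell as raw whole numbers, and per the file headers the authors made these counts with Cell Ranger 5.0.0; the submitters' processing notes also name Scanpy and the GRCz11 build. Of 10124 deposited barcodes at 28 hpf and 7905 at 60 hpf, those with at least 1000 genes were kept (13907 cells), and 24 barcodes occurred in both libraries (16 among kept cells). The members, lists and comparisons were chosen with earlier results of these data known.

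Totals were scaled to 10000 UMIs and logged, genes in more than 2 cells were kept, 4000 variable genes were taken and the 31 members among them removed (3969 used), values were capped at 10, and cells were clustered (50 principal components, 15 neighbours, Louvain resolution 1, seed 7) into 30 clusters. A cluster was named from fixed marker lists when a list had a median log2 ratio of at least 1 over at least 3 markers found in over 5% of its cells (pseudocount 0.1). Classes of at least 20 cells were given levels. Predicted doublets (806 cells with the highest Scrublet scores, 0.8% for each 1000 cells of a library) stayed in, except in 1 alternative. UMIs were summed per class and stage; with 1 library per stage no test was run, and a member counted as changed at 2-fold with at least 50 UMIs over both classes and a pseudocount of 1 UMI. Intervals are exact 95% Poisson or binomial ones and cover counting error only. Shares of cells and members per cell were taken after thinning to 2000 UMIs, leaving out shallower cells.

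Members named in each comparison were the 5 largest rises and the 5 largest falls past the rule, with their paralogs. Identifiers that share a symbol were kept apart by Ensembl ID. RefSeq names matched 73 of 82 identifiers. The RefSeq assembly, GRCz12tu, is not the build of the files, so only names and chromosomes were taken from it, and no coordinates. The script was checked on simulated data. Alternatives were at least 1500 genes per cell, doublets removed, Louvain resolution 2, members kept among the variable genes, each library clustered alone, at least 20 UMIs, no minimum, means over cells in place of sums, totals without hemoglobin and mitochondrial genes, and thinning to 1000 UMIs. Those chosen after seeing the data left out clusters 5 and 12 or the erythroid cells, or took motor neurons, GABAergic interneurons or non-cycling progenitors as the only cells of their group. Python 3.11.15, scanpy 1.11.5, anndata 0.12.19, igraph 0.11.9, scikit-learn 1.9.0, numpy 2.4.6, scipy 1.17.1, pandas 2.3.3 and matplotlib 3.10.9 were used.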

Additional observations from a re-analysis of the deposited data

Results flagged for a closer look

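The level of pcdh7a was 9.89 UMIs per 10000 (9.15 to 10.7, from 666 UMIs) in cluster 26, a group of 72 cells at 60 hpf that met no marker list and entered no comparison. It stood above the level of pcdh7a in OPC/OL of the same library, 4.95, and in erythroid cells, 0.0518. The cluster was led by foxd3, krt18a.1, tm4sf18 and mcamb. Its pcdh7b level was 6.65, its pcdh9 level 1.1 and its cdh2 level 1.4.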

How the results depend on the processing

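Of 140 counts of changed members under another setting 117 stayed within 1.5 times the value given and 23 did not, and of 971 log2 ratios of named members 926 kept their direction and side of the rule, 37 no longer passed it and 8 reversed. Of 23 means of protocadherins per cell 18 moved by more than their interval over cells with the thinning: at 1000 UMIs they were 2.29 in motor neurons and 1.05 in progenitors at 60 hpf, and 1.65 and 0.961 at 28 hpf. The cause was not tested for any of these shifts, except that a lower minimum of UMIs admits more members.

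With no minimum of UMIs the counts were 39 for precursors over progenitors (20 as reported), 32 for cycling over non-cycling progenitors (4), 37 at 60 hpf (18) and 44 at 28 hpf (26) for motor neurons over GABAergic interneurons, 42 for OPC/OL over progenitors (16), 30 at 60 hpf (8) and 19 at 28 hpf (7) for radial glia over progenitors, and 33 for progenitors over stages (15). With at least 20 UMIs they were 12 for cycling progenitors, 27 for OPC/OL and 14 for radial glia at 60 hpf. With at least 1500 genes per cell they were 1 for cycling progenitors and 4 for radial glia at 28 hpf, where pcdh8 reversed to 0.11. With members kept among the variable genes they were 2 for cycling progenitors and 4 for radial glia at 28 hpf. With doublets removed, motor neurons over GABAergic interneurons gave 14 at 28 hpf. At resolution 2 progenitors over stages gave 8, and pcdh20 (0.86), cdh22 (2.54) and pcdh1g32 (0.68) reversed in radial glia over progenitors at 60 hpf.

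Among alternatives chosen after seeing the data, leaving out clusters 5 and 12 gave 14 for motor neurons over GABAergic interneurons at 28 hpf and 19 for neurons over stages (30 as reported). GABAergic interneurons as the only neurons gave 17 for neurons over progenitors at 60 hpf (38), with cdh10a at −0.43 and pcdh7a at −0.61, and 17 for neurons over stages, with cdh7b at 0.31. Motor neurons as the only neurons put pcdh18b at 0.47 over stages. Without erythroid cells 27 members changed in non-neural over neural cells at 28 hpf (59), and non-cycling progenitors alone gave 12 for radial glia at 28 hpf.

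No paired analysis was possible because each stage had 1 library, and leaving out a replicate was not possible for the same reason. Members with few UMIs have wide intervals, and a level of 0 means that none was detected at this depth. Reads of clustered protocadherins can fall in exons the members share.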
